A study of Gallus gallus with 22 samples.

Results

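The genes described here are 100 genes whose level varied alike in the jejunum and the pancreas of the same broiler. They are the most alike among 275 genes that passed limits on level and variation, not among all genes. On d 24, RNA of male Ross 308 broilers was sequenced from 2 organs, the pancreas and the proximal part of the jejunum. The broilers had been fed a coarsely ground corn diet with 2% sugarcane bagasse (SB) or the same kind of diet with 0% SB (control). According to the methods of the study, 1 broiler drawn at random from each pen gave both tissues, and outlying samples had been removed by the authors. The labels give each library its tissue and diet, and its column name carries a number. The same number in both tissues was read here as the same broiler, although the labels do not say so and the replicate numbers of the titles differ between the tissues. In the jejunum 6 SB and 5 control libraries were analysed, and in the pancreas 5 SB and 6 control libraries. The numbers 3, 11, 26, 34, and 41 (SB) and 9, 17, 32, 39, and 47 (control) occurred in both tissues, while jejunum 19 (SB) and pancreas 1 (control) had no partner and took no part in the choice of genes.

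The members were chosen from the log2 CPM values, a gene's counts relative to the total of its library, with trimmed-mean scaling, on a scale where 1 unit is a 2-fold difference. Of 17007 genes, 5715 had a mean from 1 to under 5 log2 CPM in both tissues. Among these, 496 had a standard deviation (SD) within diet of 0.5 or more in the jejunum and 1096 in the pancreas, and 275 passed in both. For these 275 eligible genes, each value was set against the mean of its diet and tissue, and the Pearson correlation (r) of jejunum with pancreas was taken over the 10 broilers. The 100 genes with the highest r are the members, and the other 175 eligible genes are used for comparison. Because the members were selected on r, their r values are a description with no test.

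The proximal jejunum is a main site of digestion and nutrient absorption, and the pancreas supplies it with digestive enzymes while its islets release insulin and glucagon into the blood. Outbred animals differ from one another in the level of many genes, and some of these differences are shared by several tissues of an animal. A gene symbol was at hand for 1 member only, GPX2 (ENSGALG00010021537), which encodes glutathione peroxidase 2, an enzyme of the intestinal lining in mammals that reduces hydroperoxides with glutathione. The other members are given by the identifier in the count table, with no statement on what they do. GPX2 lies on chromosome 5, from 530082 to 530888 (GRCg7b), and is annotated as protein coding by RefSeq.

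Among all eligible genes, 184 had a positive r and 91 a negative r, with a median of 0.21 and a range of -0.81 to 0.92. The members ran from 0.46 to 0.92 with a median of 0.63. Of them 35 had an r of 0.7 or more, 21 had an r from 0.6 to under 0.7, and 44 were below 0.6. The limit at rank 100 did not fall at a gap. The last 5 members (ENSGALG00010026023, ENSGALG00010024333, ENSGALG00010008118, ENSGALG00010022702, and ENSGALG00010024953) had r values of 0.463 to 0.480, and the first 5 genes outside (ENSGALG00010027821, ENSGALG00010007115, ENSGALG00010017530, ENSGALG00010012954, and ENSGALG00010011001) had r values of 0.430 to 0.461. Within diet, the SD of the members was 0.50 to 2.48 log2 CPM in the jejunum (median 0.74) and 0.51 to 2.22 log2 CPM in the pancreas (median 0.76). No member had fewer than 10 counts in any of the 22 libraries, and the lowest count of a member was 18. The library totals were 42540952 to 203039911 counts in the jejunum and 65957320 to 300479804 counts in the pancreas. These totals are larger than the read numbers given in the study. A count in the table may therefore not stand for a single sequenced read.

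The members as a set were highest in a few broilers. Broiler 3 (SB) and broilers 17 and 39 (control) were above their diet mean in both tissues for most members, broiler 39 in the pancreas for 65 of 100. In the jejunum, the mean deviation of the 100 members from their diet mean was 0.94 log2 CPM in broiler 3 and 0.34 in broiler 41, and between -0.56 and -0.35 in the other 3 SB broilers. Among the control broilers it was 0.86 in broiler 39 and 0.48 in broiler 17, and between -0.48 and -0.38 in the other 3. In the pancreas it was 0.74 in broiler 3, 0.07 in broiler 26, 0.00 in broiler 41, -0.35 in broiler 34, and -0.47 in broiler 11. For the control pancreas it was 0.93 in broiler 17 and 0.22 in broiler 39, against -0.17 in broiler 32, -0.24 in broiler 9, and -0.75 in broiler 47. Broilers 3 and 17 thus stood above their diet mean in both tissues, whereas broiler 39 was far higher in the jejunum than in the pancreas. The high pancreatic values of broilers 3, 17, and 39 were not particular to the members. For the other eligible genes the pancreatic mean deviation was 0.55, -0.48, 0.16, 0.00, and -0.23 in SB broilers 3, 11, 26, 34, and 41. It was 0.23, 0.59, -0.44, 0.41, and -0.78 in control broilers 9, 17, 32, 39, and 47. Their jejunal mean deviation was -0.21 in broiler 3, 0.04 in 17, -0.19 in 39, and -0.06 in 41. Over all genes with a mean of 1 log2 CPM or more in the tissue, the median deviation of any of these libraries lay between -0.03 and 0.03.

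**Figure D1:**
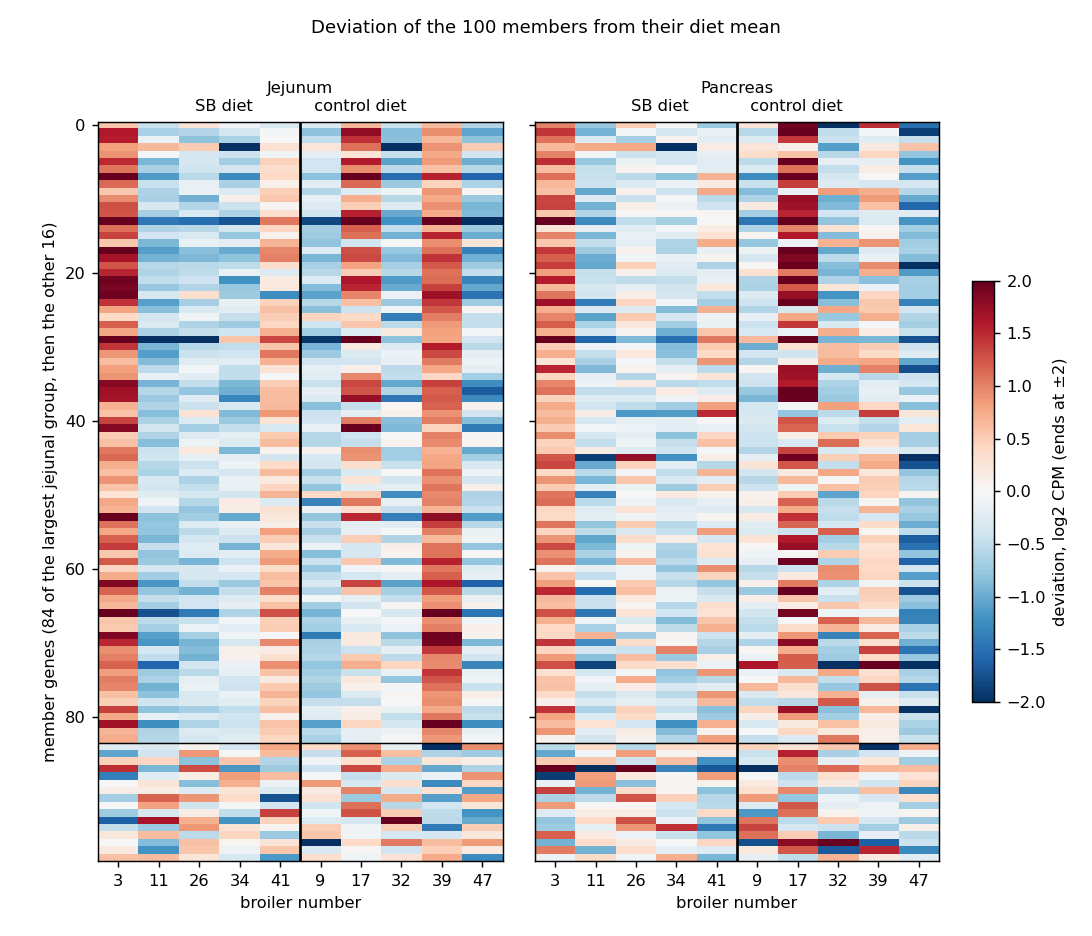
Deviation of each of the 100 members (rows) from the mean of its diet and tissue, in log2 CPM, for the 10 broilers (columns) in the jejunum (left) and the pancreas (right), with SB broilers left of control broilers. Red columns stand out for broilers 3, 17, 39, and 41 in the jejunum and for 3 and 17 in the pancreas, where 39 is only slightly above its diet mean (0.22). The 16 rows at the bottom did not share the main jejunal pattern. Some of them, such as ENSGALG00010024505 and ENSGALG00010026023, were still highest in 3, 17, and 39 in the pancreas.

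The members largely followed a single pattern in the jejunum. When they were grouped by their jejunal deviations alone (average linkage, groups separated at a correlation of 0.5), 84 of the 100 fell into 1 group, and none of the other 11 groups held more than 3 genes. For the principal components, each gene was scaled to equal variance. The first component carried 67.2% of the members' variation within diet in the jejunum and 52.3% in the pancreas. The second carried 14.2% and 21.5%. For 39 members the 3 highest jejunal levels were those of broilers 3, 17, and 39. For 26 members this held of the pancreatic levels, and for 15 members of both. Of the 175 other eligible genes 9 had this order in their jejunal and 40 in their pancreatic levels. Over 10704 genes with a mean of 1 log2 CPM or more in both tissues the same 3 broilers were highest for 5.36% in the jejunum and 9.61% in the pancreas. For pancreatic levels this order was thus about as frequent among the members as among the other eligible genes. These counts come from the values that chose the members and are given with no test.

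ENSGALG00010028610 had the widest swing of the members in the jejunum. Its jejunal level was 5.76, 0.71, 0.65, 0.42, and 3.21 log2 CPM in SB broilers 3, 11, 26, 34, and 41, against 0.69, 4.96, 1.31, 5.72, and -0.11 log2 CPM in control broilers 9, 17, 32, 39, and 47. Its pancreatic level was 4.48, 0.77, 1.55, 1.38, and 2.03 log2 CPM in the same SB broilers, against 1.41, 6.55, 2.06, 2.56, and 1.68 log2 CPM in the same control broilers. Broilers 3, 17, 39, and 41 were thus the 4 highest in the jejunum, and 3, 17, and 39 were the 3 highest in the pancreas (r = 0.76). In counts, broiler 3 had 5084 in the jejunum and 3198 in the pancreas, while broiler 11 had 137 and 244. The 2 diets overlapped in each tissue, although in the pancreas broiler 17 lay above all SB broilers.

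ENSGALG00010020810, second by r (0.88), repeated this order at a higher level. In the jejunum it was at 6.03, 3.77, 3.84, 4.06, and 4.40 log2 CPM in SB broilers 3, 11, 26, 34, and 41, against 3.87, 6.45, 3.83, 5.62, and 3.63 log2 CPM in control broilers 9, 17, 32, 39, and 47. In the pancreas it was at 5.56, 3.17, 4.09, 3.80, and 4.00 log2 CPM in those SB broilers, against 4.52, 8.05, 4.58, 5.05, and 3.20 log2 CPM in those control broilers. Broiler 17 was the highest in both tissues, with 7965 jejunal and 12830 pancreatic counts, and broilers 3 and 39 came next in both.

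The gene with the highest r, ENSGALG00010021250 (0.92), varied far more in the pancreas than in the jejunum, with within-diet SDs of 1.39 and 0.52 log2 CPM. Its pancreatic level was 4.25, 2.51, 3.76, 3.28, and 2.53 log2 CPM in SB broilers 3, 11, 26, 34, and 41, against 3.77, 5.47, 1.32, 4.99, and 2.02 log2 CPM in control broilers 9, 17, 32, 39, and 47. Its jejunal level was 3.08, 2.07, 2.77, 2.46, and 2.21 log2 CPM in these SB broilers, against 2.08, 3.02, 1.91, 2.99, and 1.76 log2 CPM in these control broilers. The order of the SB broilers from high to low, 3, 26, 34, 41, and 11, was the same in both tissues. ENSGALG00010021263 and ENSGALG00010021272, which stand within 3 rows of it in the count table, are members too. The jejunal deviations of these 3 genes correlated with each other at 0.85 to 1.00 and the pancreatic deviations at 0.60 to 0.89 over the 10 broilers. In the jejunum ENSGALG00010021263 and ENSGALG00010021272 were highest in broiler 17, at 6.11 and 5.75 log2 CPM. In all, 7 such runs held 17 members within 5 rows of another member (17%), against 19 of the 175 other eligible genes (10.9%). Among linked genes of known position the rows were sorted by chromosome but not by position within it, so nearness in the table does not show nearness on a chromosome. How reads that fit several genes were counted is not given in the sources used here, so genes with near-identical copies could share counts.

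**Figure D2:**
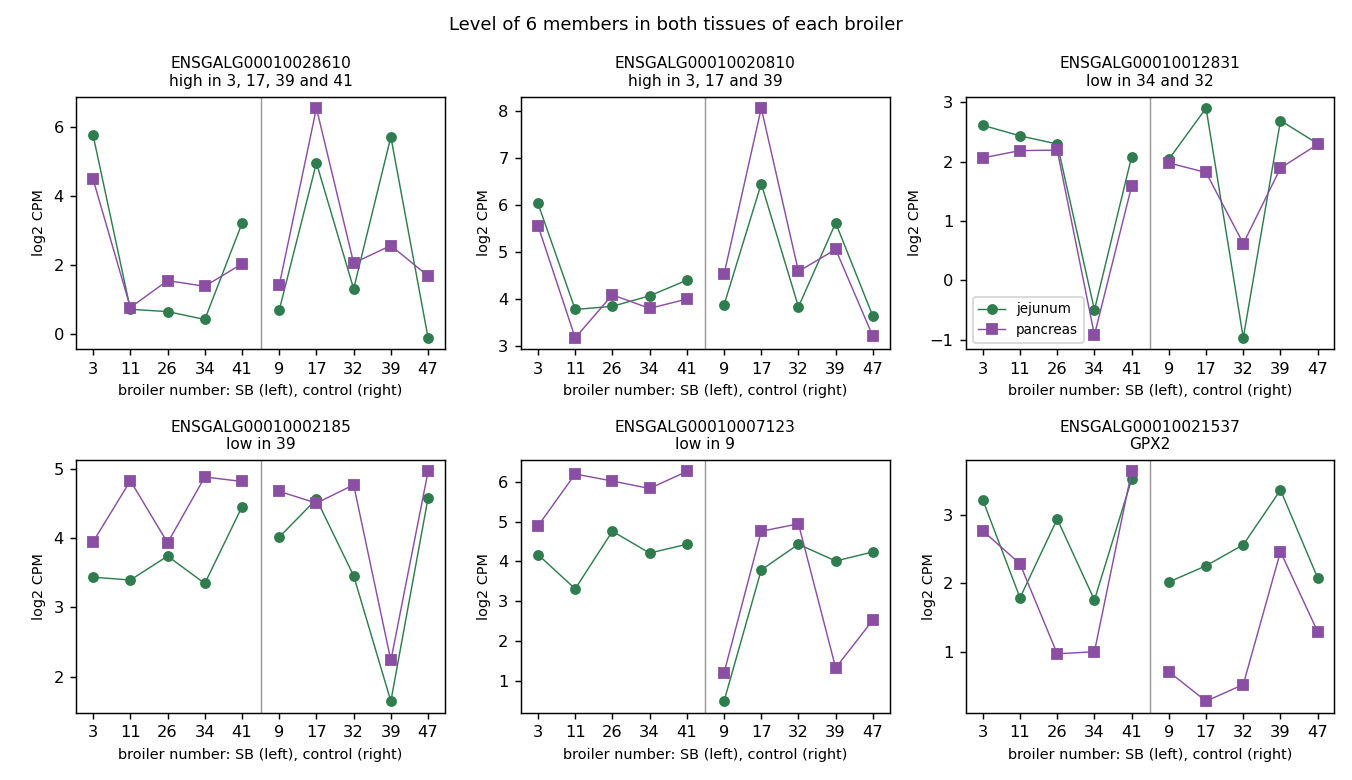
Level in log2 CPM of 6 members in the jejunum (circles) and the pancreas (squares) of each of the 10 broilers, SB left of control. The first 2 genes peak in broilers 3, 17, and 39, the next 3 are low in both tissues of certain broilers (34 and 32, 39, and 9), with 39 and 47 also low in the pancreas for the last of these 3, and GPX2 is high in 3, 41, and 39 in both tissues.

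A few members stood out by 1 or 2 broilers that were low in both tissues. ENSGALG00010012831 had -0.50 log2 CPM in the jejunum and -0.92 log2 CPM in the pancreas of SB broiler 34, against 2.08 to 2.61 and 1.59 to 2.19 log2 CPM in the other 4 SB broilers. In control broiler 32 its levels were -0.97 (jejunum) and 0.62 (pancreas) log2 CPM, against 2.04 to 2.90 and 1.82 to 2.29 log2 CPM in the other 4 control broilers. The jejunum of SB broiler 19, which has no pancreatic partner, was low as well at -1.11 log2 CPM. All other libraries of this gene were at 1.59 log2 CPM or more, and the low ones still held 33 to 240 counts. By rank instead of level its correlation was 0.39 in place of 0.87. With any 1 broiler left out its r was 0.86 to 0.93, and no run left out both 34 and 32.

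ENSGALG00010002185 was low in control broiler 39 only, at 1.64 log2 CPM in the jejunum and 2.23 log2 CPM in the pancreas, where the other 9 broilers were at 3.35 to 4.58 and 3.94 to 4.97 log2 CPM. Its r was 0.80 with this broiler and 0.08 without it. ENSGALG00010007123 was low in control broiler 9 in both tissues, at 0.49 log2 CPM in the jejunum and 1.20 log2 CPM in the pancreas, where broilers 39 and 47 were low too, and without this broiler its r fell to 0.02 from 0.49. ENSGALG00010003774 differed again, with its lowest jejunal and pancreatic levels in SB broiler 3 (1.54 and 0.77 log2 CPM) and its highest in control broiler 17 (4.09 and 3.38 log2 CPM). Genes of this kind show that broiler 3 was not high for all members and that broiler 39 was not either.

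ENSGALG00010024690 was bimodal in the pancreas. Its pancreatic level was 4.58 and 4.76 log2 CPM in SB broilers 3 and 26, against -0.40, 0.64, and 0.28 log2 CPM in SB broilers 11, 34, and 41. In control pancreas it was 4.42 to 4.92 log2 CPM in broilers 17, 32, 39, and 47, against 0.39 and -1.06 log2 CPM in broilers 9 and 1. In the jejunum the same gene was highest in broilers 3, 26, 17, and 32 (5.48, 5.30, 5.01, and 4.42 log2 CPM), while broilers 39 and 47 were low there at 2.66 and 3.06 log2 CPM despite their high pancreatic levels. In 8 of the 10 paired broilers the gene was thus high in both tissues or low in both (r = 0.73), and in 2 it was not.

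The same-number pairing was compared with all other pairings. Within diet the 10 jejunal and 10 pancreatic libraries can be paired in 14400 ways, and all were enumerated. Over all 275 eligible genes, which were not chosen by r, the median r was 0.210 for the same-number pairing. The middle 95% of all pairings, from the 2.5th to the 97.5th percentile, ran from -0.205 to 0.207, and 326 pairings reached 0.210 or more (one-sided exact permutation p = 0.0226). The 100th highest r, the value that bounds the members, was 0.463 for the same-number pairing, a median of 0.132 over all pairings, and 0.358 at their 97.5th percentile, and 18 pairings reached as high. Many other pairings therefore gave a list of 100 genes with r values well above 0, and the members' r values overstate how alike the tissues are. Without broiler 17 the median r was 0.165 (one-sided exact permutation p = 0.0542). It did not fall without broiler 3 (0.251) or without broiler 39 (0.254). When the scaling was done within each tissue, other genes met the limits on level, and the median r over 207 eligible genes was 0.0837 (one-sided exact permutation p = 0.160). On that scaling with the 275 genes kept, an alternative chosen after seeing the data, it was 0.219 (one-sided exact permutation p = 0.0185).

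**Figure D3:**
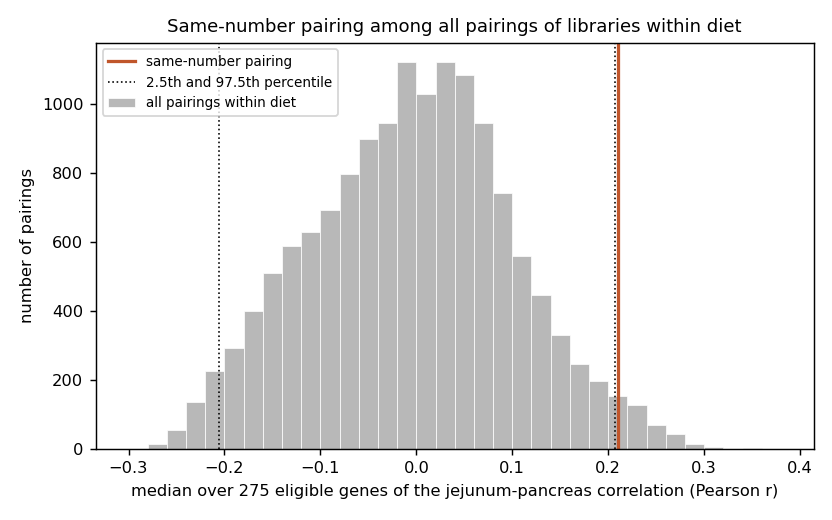
Number of pairings (vertical axis) by the median r over the 275 eligible genes (horizontal axis) for all 14400 pairings of jejunal with pancreatic libraries within diet. The same-number pairing, at 0.210, lies just past the 97.5th percentile of 0.207.

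Genes too abundant to be members were compared in another way. Across 2984 genes with a mean of 5 log2 CPM or more in both tissues, the jejunal deviations of a broiler were correlated with the pancreatic deviations of the same number. This correlation across genes, which are not independent replicates, was positive in 10 of 10 broilers, from 0.026 in broiler 39 to 0.273 in broiler 17. Its mean was 0.108, and 139 of the 14400 pairings reached this (one-sided exact permutation p = 0.00965). Over 0.1 it was 0.191 in broiler 3, 0.218 in broiler 11, and 0.273 in broiler 17. The jejunum of a broiler was most like its own pancreas, among all 10, in 2 of 10 broilers (11 and 17), so the numbers could not be recovered from these genes 1 by 1.

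The choice of members was also repeated without each broiler in turn, and the 100 genes so chosen were then read in the broiler left out, against the other 4 of its diet. The mean deviations in jejunum and pancreas had the same sign in 8 of 10 broilers. They were 0.98 and 0.87 log2 CPM in broiler 3, -0.65 and -0.59 in broiler 11, -0.46 and -0.37 in broiler 34, 0.26 and 0.97 in broiler 17, and -0.59 and -0.94 in broiler 47. Broilers 9, 32, and 39 had the same sign too, but broiler 39 had 0.98 in the jejunum and only 0.07 in the pancreas. The signs were opposite in SB broilers 26 (-0.50 and 0.19) and 41 (0.43 and -0.09). Across the 100 genes the correlation of the tissues in the broiler left out was 0.01 to 0.76 with a median of 0.28, and from 74 to 87 of the genes were shared with the members. Broiler 39 had the lowest of these correlations. No other set of genes was read in this way, so the 8 of 10 has no baseline. By itself it does not show that the likeness holds in an unseen broiler.

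**Figure D4:**
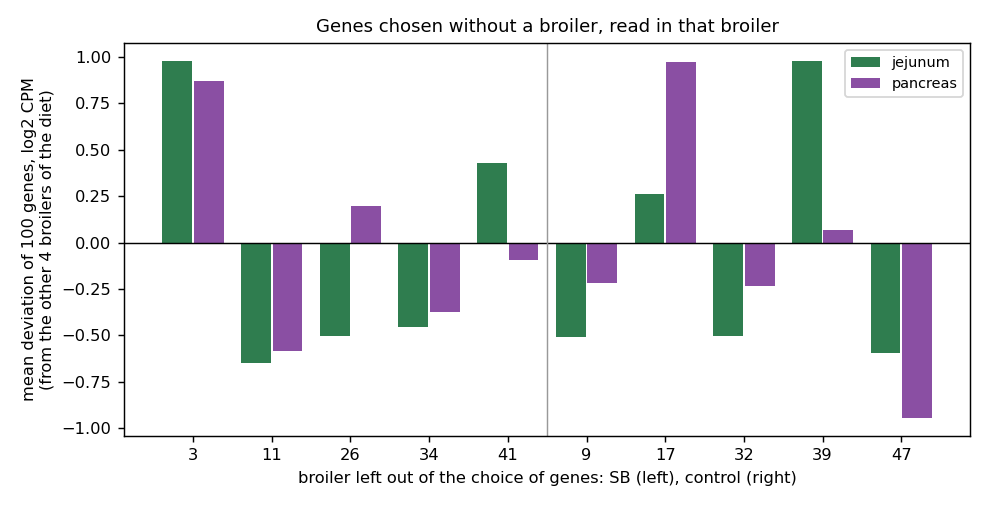
Mean deviation in log2 CPM of the 100 genes chosen without a broiler, read in that broiler's jejunum (green) and pancreas (purple) against the other 4 broilers of its diet, SB left of control. The bars of a broiler share their sign except in 26 and 41, and the pancreas of 39 is near 0 at 0.07.

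Several properties of the libraries moved with the members, though not all of them in every broiler. The 20 most abundant pancreatic transcripts took 63.8% of the counts in the pancreas of broiler 3, against 70.4% to 73.9% in the other SB pancreases. In control pancreases they took 63.7% in both 17 and 39, 67.5% in 9, and 71.6% to 74.4% in 32, 47, and 1. The same 20 transcripts were at 38.2 and 36.9 CPM in the jejunum of broilers 3 and 39 and at 23.3 in broiler 17, against 8.95 to 20.6 in the other 7 paired broilers and 18.3 in jejunum 19. Broiler 41, above its diet mean for the members in the jejunum, was within that range at 17.9. Jejunum-restricted transcripts (20 genes at least 6 log2 units above the pancreas) were lowest in the jejunum of broilers 3 and 39, at 42796 and 41110 CPM, followed by 55729 in broiler 41. Broiler 17, also above its diet mean for the members, was next lowest at 75788, below the 79125 to 88263 of the others. The paired broilers above their diet mean for the members in the jejunum were thus the lowest for these transcripts there. In the pancreas these jejunum-restricted transcripts were highest in broilers 34 and 9 (794 and 529 CPM), against 20.0 to 130 in the other 9 libraries. Broilers 34 and 9 were below their diet mean for the members there. So were broilers 11, 32, 47, and 1, with 39.4, 59.2, 26.5, and 20.0 CPM. With the 20 pancreatic transcripts left out of the scaling, an alternative chosen after seeing the data, the median r over 357 eligible genes was 0.209 (one-sided exact permutation p = 0.00521). Leaving these transcripts out changes the scaling and the eligible genes, but not the make-up of the tissue pieces. The part of these differences in the members' likeness was thus not tested. Markers of blood and other cell types could not be read, since the identifiers have no symbols here, and in such bulk samples more cells of a type and more RNA per cell cannot be told apart.

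Diet was not used to choose the members, because each value was set against its diet mean. A differentially expressed gene (DEG) was defined by the thresholds of the study, an absolute log2 fold change of 1 or more with an unadjusted P under 0.05 (edgeR quasi-likelihood test). By these, 0 of 100 members were DEGs in the jejunum, where 0.338% of all 14488 genes tested were. In the pancreas 2 of 100 members were DEGs, where 1.1% of all 14116 genes tested were. Among the other eligible genes it was 2 of 175 in the jejunum and 7 of 175 in the pancreas. Members had to vary within diet, and the median standard error (SE) of their log2 fold change was 0.42 in the jejunum and 0.41 in the pancreas. It was 0.35 and 0.39 in the other eligible genes and 0.15 and 0.17 over all genes. The share over all genes is thus not a like comparison. After adjustment over all genes tested in edgeR, 0 members and 0 genes of all passed 0.05 in either tissue. By DESeq2, 0 members passed in either tissue, with 0 genes in all in the jejunum and 15 in the pancreas, and by limma-voom 0 genes passed in both. At an unadjusted P under 0.05 there were 0 members in the jejunum and 3 in the pancreas, and 286 and 543 genes in all. The third of these members, ENSGALG00010004334, had a log2 fold change of -0.76 in the pancreas. The members' median log2 fold change (SB minus control) was -0.03 in the jejunum and -0.20 in the pancreas. It was 0.02 and -0.20 in the other eligible genes, and 0.00 and -0.01 over all genes. The pancreatic median was thus not particular to the members. When single libraries were omitted, the members' medians moved between -0.29 and 0.28 in the jejunum and between -0.38 and 0.16 in the pancreas. Neither median of the members thus had a stable direction. Of the 100 members 40 had a higher estimate in SB jejunum and 32 in SB pancreas. Among the other 175 eligible genes it was 92 and 62. Over all genes tested it was 7439 of 14488 in the jejunum and 6546 of 14116 in the pancreas.

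GPX2 was a DEG in the pancreas. Its pancreatic level was 2.76, 2.28, 0.98, 1.01, and 3.63 log2 CPM in SB broilers 3, 11, 26, 34, and 41, against 0.72, 0.29, 0.53, 2.46, 1.30, and 0.75 log2 CPM in control broilers 9, 17, 32, 39, 47, and 1. Control broilers 9, 17, 32, and 1 lay below all SB broilers, while 39 and 47 lay among them. The log2 fold change was 1.23 (SE 0.54), and edgeR gave an unadjusted P of 0.0428 and 0.995 after adjustment. In the jejunum it was 3.21, 1.79, 2.94, 1.76, 3.51, and 1.40 log2 CPM in SB broilers 3, 11, 26, 34, 41, and 19, against 2.02, 2.26, 2.56, 3.36, and 2.08 log2 CPM in control broilers 9, 17, 32, 39, and 47. There the diets overlapped fully (log2 fold change 0.10, SE 0.41). Between broilers GPX2 was high in 3, 41, and 39 in both tissues (r = 0.64). The pancreatic call was lost without any one of SB broilers 3, 11, and 41 or control broilers 1, 9, 17, 32, and 47, with a smallest log2 fold change of 0.73 without broiler 41 (edgeR, unadjusted P = 0.164). It was also lost with limma-voom (unadjusted P = 0.0849), with libraries thinned to equal depth (edgeR, unadjusted P = 0.0501), and with the replicate block (edgeR, unadjusted P = 0.121). Symbols were linked only for genes that the study listed as changed, so that the single named member was a DEG follows from the naming.

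ENSGALG00010007123 was the other DEG. Its pancreatic level was 4.89, 6.20, 6.02, 5.84, and 6.26 log2 CPM in SB broilers 3, 11, 26, 34, and 41, against 1.20, 4.76, 4.95, 1.33, 2.53, and 5.42 log2 CPM in control broilers 9, 17, 32, 39, 47, and 1. The SB broilers lay close together, and 3 control broilers were far below them. The log2 fold change was 1.68 (SE 0.70), and edgeR gave an unadjusted P of 0.0346 and 0.995 after adjustment. This call was lost without any one of SB broilers 11, 26, 34, and 41 or control broiler 47, where the unadjusted P of edgeR was over 0.05 and at most 0.0636. By limma-voom its log2 fold change was 2.83. In the jejunum the SB broilers ranged from 3.31 to 4.76 log2 CPM, against 3.79 to 4.43 log2 CPM in 4 control broilers and 0.49 in broiler 9 (log2 fold change 0.35, SE 0.48). Its neighbour in the table, ENSGALG00010007115 (LOC121113331, on chromosome 1 from 332452 to 335004, GRCg7b), stood at rank 102, just outside the members. This neighbour was a DEG in the pancreas too, with a log2 fold change of 1.53 (SE 0.53). For it edgeR gave an unadjusted P of 0.0138 and 0.995 after adjustment.

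**Figure D5:**
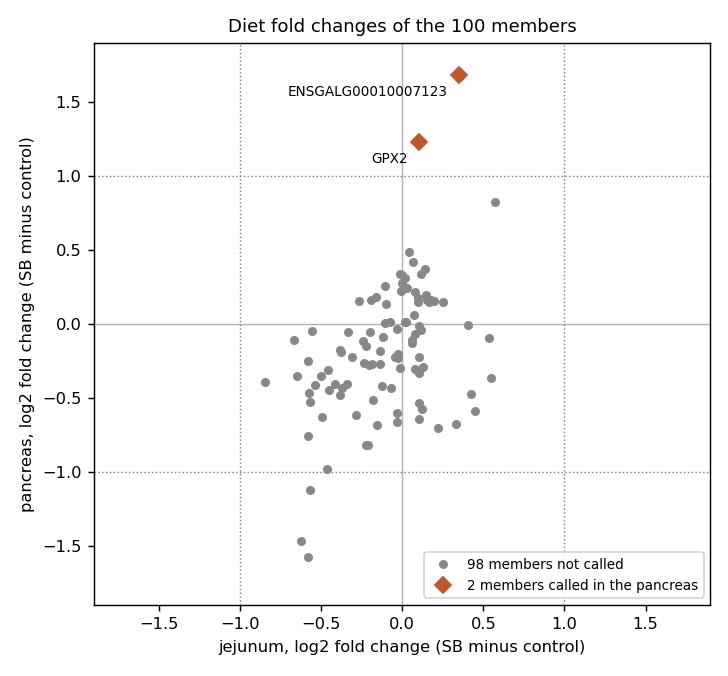
Log2 fold change (SB minus control) of each of the 100 members in the jejunum (horizontal axis) and the pancreas (vertical axis), with dotted lines at the fold threshold of 1 in either direction. GPX2 (1.23) and ENSGALG00010007123 (1.68) are called in the pancreas, and no member reaches 1 in the jejunum.

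The diet estimates of the members depended on single broilers. Without broiler 3, the SB broiler in which they were highest, 11 of 100 members were DEGs in the jejunum, all lower in SB, where 83 genes (0.575% of those tested) were called in all. In the pancreas 6 of 100 were called without it, 2 higher and 4 lower in SB, where 236 genes (1.67%) were called in all. The median log2 fold change of the members was then -0.29 in the jejunum and -0.38 in the pancreas. Without control broiler 39 the jejunal median turned to 0.28, and without control broiler 17 the pancreatic median turned to 0.16. The jejunal median was also above 0, by 0.02 to 0.03, without SB broiler 11, 19, or 26. In the fits without broiler 3, 0 members passed an adjusted p of 0.05 in edgeR. The members were chosen by their deviations within diet, and as a set they were high in broilers 3, 17, and 39. Leaving out any 1 of these lowers the mean of its diet for the set. The direction of these shifts thus follows from the choice of genes, and the counts of DEGs without broiler 3 do not test diet.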

How the data were processed

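Reads were checked (FastQC), trimmed (Trimmomatic), and mapped to GRCg7b (STAR), and the authors deposited raw counts per Ensembl gene from HTSeq. The authors also deposited log2 values, which equalled edgeR log2 CPM with a prior count of 2 and trimmed-mean factors across 22 libraries (374154 of 374154 values within 1e-06). Whether counting used strand is not given in the sources used here.

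Members were taken from the deposited log2 values by the rule given above, with means and SDs over the 10 paired broilers and the SD pooled within diet. Diet was tested on the raw counts per tissue with filterByExpr, trimmed-mean factors, and the quasi-likelihood test of edgeR 4.0.16 in R 4.3.3 (legacy = FALSE), with Benjamini-Hochberg adjustment. Each SE was derived from this test, as the absolute log2 fold change divided by the square root of the F statistic. Correlations used NumPy 2.4.6. Alternatives used DESeq2 1.42.0 and limma 3.58.1. The procedure was tested on simulated data. Per the methods of the study, libraries of 1 tissue come from different pens.

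The members and the gene lists were chosen with earlier results of these data known. The rule for named genes was the leading members with a symbol, members on lists of markers and pathways, members called for diet, members near each other on the genome, and the 5 genes on either side of rank 100. Of 166 entries that the study listed as changed, 164 were linked to 1 identifier by their listed fold changes and P values. These were matched to an edgeR fit with legacy = TRUE and robust = TRUE, which is not the diet fit reported here. Only entries that the study listed by symbol gave a symbol, and no listed value is used otherwise. The marker and pathway lists and chromosomal positions could thus not be applied, and the members given by identifier only were picked after their values were seen.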

Additional observations from a re-analysis of the deposited data

Results flagged for a closer look

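In 56 groups of 5 or 6 libraries (14 quantities in both tissues and diets), 15 held a library that stood far apart from the rest (26.8%), where chance alone gives about 1 in 20. These genes were chosen for their variation between broilers, from the same values. Many of them also vary together across the same libraries, so the groups are not independent. The 26.8% is thus not a comparison with chance. SB broiler 3 was above the rest in the jejunum for ENSGALG00010020810 (6.03 log2 CPM), ENSGALG00010008229 (4.52 log2 CPM), and ENSGALG00010027725 (3.87 log2 CPM). The same broiler was above the other SB pancreases for ENSGALG00010027725 (2.22 log2 CPM) and ENSGALG00010021272 (3.23 log2 CPM). Control broiler 17 stood above the other control pancreases for ENSGALG00010008229 (3.83 log2 CPM), ENSGALG00010021272 (4.20 log2 CPM), ENSGALG00010021263 (3.85 log2 CPM), ENSGALG00010028610 (6.55 log2 CPM), and ENSGALG00010003774 (3.38 log2 CPM). For ENSGALG00010012831 the low libraries were the jejunum (-0.97 log2 CPM) and the pancreas (0.62 log2 CPM) of control broiler 32 and the pancreas of SB broiler 34 (-0.92 log2 CPM). ENSGALG00010007123 was low in the jejunum of control broiler 9 (0.49 log2 CPM), and ENSGALG00010002185 was high in the jejunum of SB broiler 41 (4.46 log2 CPM).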

How the results depend on the processing

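The median r of the eligible genes was 0.210 and lost its call with trimmed-mean scaling within each tissue (0.0837) and without broiler 17 (0.165). Leaving out each broiler in turn gave 0.165 to 0.315, and the mean same-number correlation of the genes outside the rule kept its call in every alternative run (0.0683 to 0.147). Of the 100 members 51 were chosen again with scaling within each tissue (207 eligible genes) and 44 with an SD of 0.3 or more (1123 eligible). With that lower SD limit the 100th highest r was 0.666, above the median r of the members (0.63). With means from 2 to under 5 (128 eligible) 49 were in the list, and with an SD of 0.7 or more 46 were, but there nearly all or all of the eligible genes (90 in the last case) are taken, so these counts say only how many members pass the stricter limit. With scaling within each tissue but the main eligible genes 99 were chosen again, so that loss came from which genes were eligible. Leaving out each broiler in turn kept 74 to 87.

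In the jejunum the members called for diet were 0 in all 8 other settings and 0 to 11 when libraries were left out. In the pancreas they were 2, or 1 with limma-voom, after thinning to equal depth, and with the replicate block, and 0 to 6 when libraries were left out. Over all genes there were 49 calls in the jejunum and 148 with no filter on low counts, and 155 in the pancreas, 332 with no filter, and 100 with limma-voom. Same-numbered SB and control libraries of the titles did not deviate together (correlations of -0.58 to 0.34 in the jejunum and -0.59 to 0.28 in the pancreas), and only 1 of 5 in the jejunum and 0 of 5 in the pancreas correlated best with its own number. The replicate block therefore pairs nothing known. The cause of the other changes was not tested. Each member had 18 counts or more in each library, but the totals exceed the read numbers of the study, so the depth in reads is uncertain.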
